A study of Mus musculus with 4 samples.

Results

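Toll-like receptors and their co-receptor gene Cd14 were followed across whole colons of mice with dextran sulfate sodium (DSS) colitis that lacked or carried STAP-2. The 10 genes taken were Tlr1 to Tlr9 and Cd14. They were chosen by name, and their probes were found through the RefSeq accession that the array gives for each probe, out of 20832 genes named in this way. Tlr7 alone has several probes, and its brightest by mean log2 signal was taken. STAP-2-/- mice and wild-type (WT) mice, all on the C57BL/6J background and 14 weeks old, received 1.75% DSS, which damages the lining of the colon, in their drinking water. The length of DSS treatment is 3 days in one field of the labels and 7 days in another. Each array holds Cy3-labelled RNA of entire colons pooled from 3 mice, and there were 2 arrays for STAP-2-/- and 2 for WT. The design text gives 3 mice per genotype, and the labels do not say whether the pools of a genotype share mice. No group without DSS was analysed here.

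Toll-like receptors detect molecules of microbes. Tlr1, Tlr2, Tlr4, Tlr5 and Tlr6 act mainly at the cell surface, where Tlr2 pairs with Tlr1 or Tlr6 to bind bacterial lipopeptides, Tlr4 responds to lipopolysaccharide with the help of Cd14, and Tlr5 responds to flagellin. Tlr3, Tlr7, Tlr8 and Tlr9 act in endosomes and detect nucleic acids. Most signal through the adaptor MyD88, which STAP-2 is known to bind, and Tlr3 signals through the adaptor TRIF, encoded by Ticam1. In the colon these receptors are known from epithelium, macrophages, dendritic cells and B cells. In whole-tissue RNA, fewer cells of a type and less RNA per cell cannot be told apart.

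Values are log2 of the processed signal relative to the 75th percentile of the array, so 0 stands for a signal of 2134 to 2348 units depending on the array. Between 68.4% and 70.5% of the non-control spots were well above background. Precision is limited by there being 4 arrays. Stap2 itself read -6.63 and -7.72 on the STAP-2-/- arrays, where it was not well above background, against 2.92 and 2.98 on the WT arrays. WT was at least 720.9-fold higher, taking for STAP-2-/- whichever was larger on an array, the Stap2 signal or the dimmest probe called well above background. All 15 defining markers of the cell types looked for, among them Epcam and Krt20 of the epithelium, were well above background on all 4 arrays. Arrays are called by genotype and by the replicate number in their titles. All arrays lay on 1 slide, with the arrays numbered 1 at positions 1 and 2 and those numbered 2 at positions 3 and 4, so number and position cannot be told apart. Log2 differences were taken over 15155 genes well above background on every array, skipping missing values. Their SD was 0.610 between the STAP-2-/- arrays and 0.397 between the WT arrays. The SD was smaller between the genotypes at equal number, 0.317 for number 1 and 0.359 for number 2.

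The stretches before the gene starts of 4 receptors are shown because Tlr2 and Tlr3 had the widest swings with the array number, Tlr9 went the other way and Tlr6 differed most by genotype. They come from RefSeq with build GRCm38.p6 and run from 250 bases before to 50 bases after the annotated start, 5′ to 3′ on the strand of the gene, with capitals marking motif matches. Tlr2 lies at chr3:83841559-83841858 on the minus strand, Tlr3 at chr8:45410331-45410630 on the minus strand, Tlr9 at chr9:106222348-106222647 on the plus strand and this start of Tlr6 at chr5:64959117-64959416 on the minus strand.
Tlr2 promoter: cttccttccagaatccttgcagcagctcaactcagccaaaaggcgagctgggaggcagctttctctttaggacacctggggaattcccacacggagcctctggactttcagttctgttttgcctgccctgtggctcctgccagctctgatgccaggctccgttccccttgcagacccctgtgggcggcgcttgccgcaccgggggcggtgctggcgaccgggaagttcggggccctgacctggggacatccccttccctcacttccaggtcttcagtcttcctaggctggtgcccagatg
Tlr3 promoter: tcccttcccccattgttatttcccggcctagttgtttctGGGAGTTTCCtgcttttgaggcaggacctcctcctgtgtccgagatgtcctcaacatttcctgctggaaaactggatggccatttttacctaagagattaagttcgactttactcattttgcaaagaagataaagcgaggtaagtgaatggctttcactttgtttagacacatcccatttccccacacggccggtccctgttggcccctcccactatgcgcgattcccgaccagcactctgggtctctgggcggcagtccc
Tlr9 promoter: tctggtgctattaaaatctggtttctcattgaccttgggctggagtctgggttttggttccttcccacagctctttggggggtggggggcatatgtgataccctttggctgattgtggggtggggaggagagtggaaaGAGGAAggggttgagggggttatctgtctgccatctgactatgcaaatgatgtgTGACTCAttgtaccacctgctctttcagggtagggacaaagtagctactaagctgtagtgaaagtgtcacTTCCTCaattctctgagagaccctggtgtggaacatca
Tlr6 promoter: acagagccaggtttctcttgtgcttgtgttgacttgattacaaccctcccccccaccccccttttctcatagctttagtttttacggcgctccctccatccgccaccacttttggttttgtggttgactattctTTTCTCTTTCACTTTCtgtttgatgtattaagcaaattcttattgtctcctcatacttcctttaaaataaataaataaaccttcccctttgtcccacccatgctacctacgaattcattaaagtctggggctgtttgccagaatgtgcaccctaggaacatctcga
Motifs were searched on both strands in 9 promoters of 7 members, since Tlr1 and Tlr6 have 2 starts each. Tlr4 and Tlr7 had no promoter sequence at hand and Cd14 was left out, so the member counts do not cover these genes. An interferon-stimulated response element, searched as GAAA, any 2 bases and GAAA again, was found in 1 of these promoters, the one of Tlr6 shown, as 2 overlapping matches starting 116 and 110 bases before the start. It is present in 3.44% of all 32851 promoters. An NF-kB motif, searched as GGG, any 2 bases and TTTCC, occurred 211 bases before the start of Tlr3 and in no other of the 9 promoters, against 1.63% of all promoters. In Tlr9 the capitals mark the AP-1 motif TGANTCA, present in 7.81% of promoters, and 2 matches of an ETS motif searched as GAGGAA. That ETS motif, present in 28.3% of promoters, was also found in promoters of Tlr1 and Tlr8. The STAT motif TTCNNNGAA was found in 3 member promoters, those of Tlr1, Tlr8 and the second start of Tlr6, against 8.3% of all promoters. None of these search patterns matched in the Tlr2 window. Other forms of the motifs were not searched, so a window without a match can still hold such a site. A match is a description of the sequence only.

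Of the 10 members, 9 were well above background on all 4 arrays and entered the genome-wide test. The tenth, Tlr8, was not well above background on any array, at -8.58 and -8.87 on the STAP-2-/- arrays and -8.39 and -8.75 on the WT arrays, so no difference is given for it. Its neighbour on the X chromosome, Tlr7, was measured on every array.

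**Figure D1:**
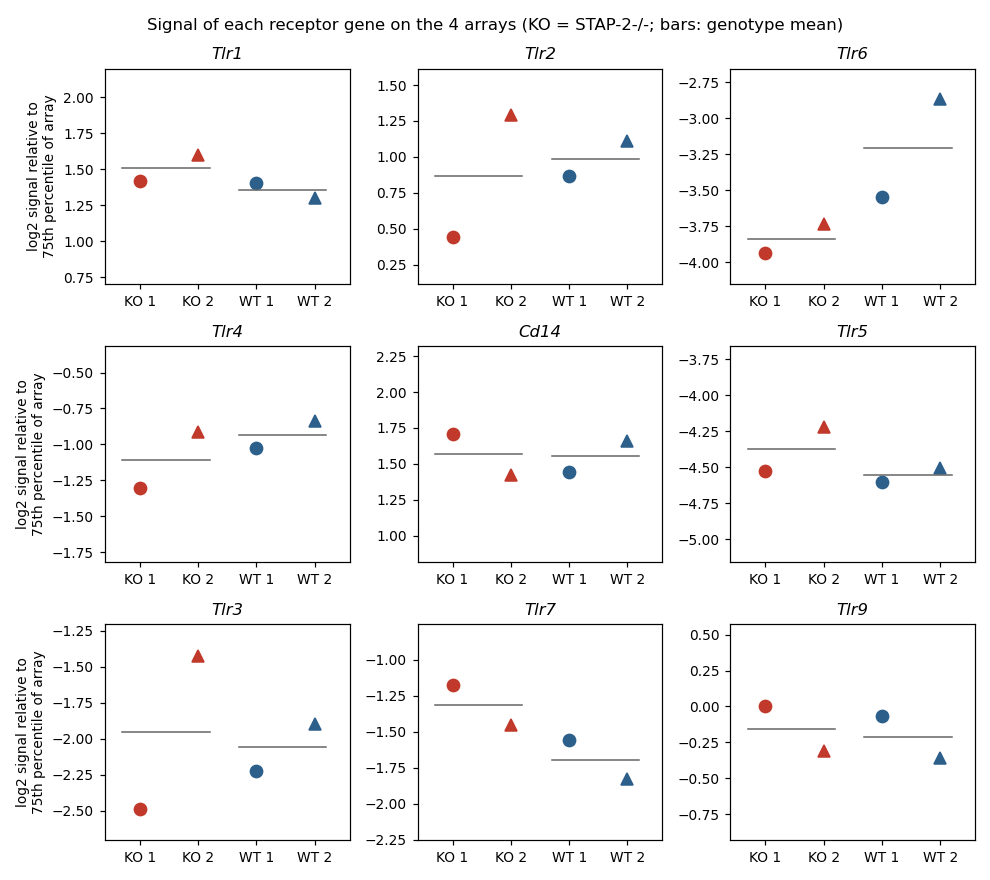
Log2 signal relative to the 75th percentile of the array (vertical axis, the same span in each panel) for the 9 members above background on the 4 arrays; red is STAP-2-/- (KO), blue is WT, circles are arrays numbered 1, triangles arrays numbered 2, and bars are genotype means of 2 arrays. Tlr2 and Tlr3 are lowest on STAP-2-/- 1 and highest on STAP-2-/- 2, Tlr9 is lower on both arrays numbered 2, and Tlr6 is lower on both STAP-2-/- arrays.

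Between STAP-2-/- and WT colons no receptor gene passed the threshold, and the largest difference among the 9 was that of Tlr6, which was lower in STAP-2-/-. By limma over 15560 genes with Benjamini-Hochberg adjustment, 0 of 9 members had an adjusted p under 0.05, beside 0% of all genes tested. At an unadjusted p under 0.05 there were 0 of 9 members, beside 2.1% of all genes (0.797% higher and 1.3% lower in STAP-2-/-). Groups did not overlap for 2 members that were higher in STAP-2-/- colons, Tlr1 and Tlr7, beside 11.5% of all genes. They did not overlap for 1 member that was lower, Tlr6, beside 13.4% of all genes. Together that makes 3 of 9, beside 24.9% of all genes. By sign, 6 members were above 0 and 3 below, beside 48.3% and 51.7% of all genes. The median log2 difference of the 9 members was 0.06, and -0.01 over all genes tested. With 2 arrays per genotype the p-values measure the spread between these arrays only, which may be partly technical.

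Among the receptors for bacterial lipopeptides, Tlr6 stood lowest without STAP-2. Tlr6 read -3.94 and -3.73 on the STAP-2-/- arrays, against -3.55 and -2.87 on the WT arrays. Both STAP-2-/- arrays lie below both WT arrays, and WT 2 lies well above the other three. The difference was -0.63 (SE 0.28, 95% interval -1.42 to 0.17), which is 1.55-fold lower, with a limma adjusted p of 1.0. Without WT 2 it was -0.29 and without WT 1 -0.97. Of all genes tested, 3.28% had a genotype difference as large in either direction. The 6 fibroblast markers, all tested, were by their median also highest on WT 2, at 0.57 above the gene means over the 4 arrays. Their median difference was -0.37, with -0.02 at number 1 and -0.69 at number 2. Their summed signals were 76.9 and 69.9 times the 75th percentile in STAP-2-/- against 80.8 and 102.8 in WT. Being highest on WT 2 was not particular to fibroblast markers. Medians there were 1.08 for MyD88 and NF-kB response genes, 0.87 for neutrophil, 0.86 for B cell and 0.30 for conventional dendritic cell markers. The part of any of these lists in the Tlr6 value was not tested.

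Tlr1, which lies next to Tlr6 on chromosome 5 and shares the partner Tlr2, had a small difference. It read 1.42 and 1.60 on the STAP-2-/- arrays and 1.41 and 1.30 on the WT arrays. The groups do not overlap, but STAP-2-/- 1 and WT 1 are 0.01 apart. The difference was 0.15 (SE 0.15, 95% interval -0.25 to 0.56), and 38.9% of tested genes had one as large. It was 0.06 without STAP-2-/- 2, 0.10 without WT 2 and 0.25 without STAP-2-/- 1.

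Tlr2, the shared partner, had the widest gap between the STAP-2-/- arrays after Tlr3. It read 0.44 and 1.29 on the STAP-2-/- arrays and 0.86 and 1.11 on the WT arrays, so the WT arrays lie between the STAP-2-/- arrays. The genotype difference was -0.12 (SE 0.34, 95% interval -1.08 to 0.83). It turned to 0.30 without STAP-2-/- 1, was 0.0004 without WT 2 and was -0.55 without STAP-2-/- 2. The Tlr2 probe is spotted 10 times on each array, and the SD between its spots of 1 array was 0.034 to 0.039 (9 or 10 spots after 1 outlier-flagged spot was left out on STAP-2-/- 1 and on WT 2). Spots of STAP-2-/- 1 ran from 0.40 to 0.49 and those of STAP-2-/- 2 from 1.24 to 1.35. The spread between spots is measurement error within an array and does not measure variation between pools.

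Of the lipopolysaccharide receptors, Tlr4 read -1.30 and -0.92 on the STAP-2-/- arrays and -1.03 and -0.84 on the WT arrays. The groups overlap, with a difference of -0.18 (SE 0.20, 95% interval -0.74 to 0.38) that was 0.02 without STAP-2-/- 1. Its co-receptor Cd14 read 1.71 and 1.42 on the STAP-2-/- arrays against 1.45 and 1.66 on the WT arrays. The Cd14 groups overlap almost fully, and the difference was 0.01 (SE 0.18, 95% interval -0.48 to 0.51), turning to -0.13 without STAP-2-/- 1 and -0.09 without WT 1. Cd14 and Tlr4 differed in opposite directions on the arrays numbered 1, where Cd14 was 0.26 higher and Tlr4 0.27 lower in STAP-2-/- than in WT. Tlr5, the flagellin receptor, read -4.53 and -4.22 on the STAP-2-/- arrays and -4.60 and -4.50 on the WT arrays. Its groups overlap narrowly, with a difference of 0.18 (SE 0.17, 95% interval -0.29 to 0.66). Leaving out STAP-2-/- 2 gave 0.03, and leaving out STAP-2-/- 1 gave 0.34.

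Among the endosomal receptors, Tlr3, the sensor of double-stranded RNA, spread most. It read -2.49 and -1.42 on the STAP-2-/- arrays and -2.22 and -1.90 on the WT arrays, with the WT arrays again between the STAP-2-/- arrays. The genotype difference was 0.10 (SE 0.42, 95% interval -1.07 to 1.27), and it was 0.63 without STAP-2-/- 1, -0.43 without STAP-2-/- 2 and -0.06 without WT 1. Tlr9, the sensor of CpG DNA, read -0.0001 and -0.31 on the STAP-2-/- arrays and -0.07 and -0.36 on the WT arrays. Its difference was 0.06 (SE 0.20, 95% interval -0.49 to 0.61), turning to -0.09 without STAP-2-/- 1 and without WT 2.

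Tlr7, the sensor of single-stranded RNA, was the member with the most even genotype difference by its brighter probe. That probe read -1.18 and -1.45 on the STAP-2-/- arrays and -1.56 and -1.83 on the WT arrays. Both STAP-2-/- arrays lie above both WT arrays, by 0.38 at number 1 and by 0.38 at number 2. The difference was 0.38 (SE 0.19, 95% interval -0.14 to 0.90), which is 1.30-fold higher, with a limma adjusted p of 1.0. It was 0.24 without STAP-2-/- 1 or WT 2, and 0.52 without STAP-2-/- 2 or WT 1. A second Tlr7 probe, dimmer and also well above background on every array, did not show it. It read -3.96 and -3.46 on the STAP-2-/- arrays and -3.70 and -3.62 on the WT arrays, so its groups overlap. By that probe, used in place of the first after the values were seen, the difference was -0.05 (SE 0.22, limma adjusted p of 1.0). The probes carry the same accession, and which transcripts each binds was not analysed here. The Tlr7 value is therefore that of 1 probe of 2.

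**Figure D2:**
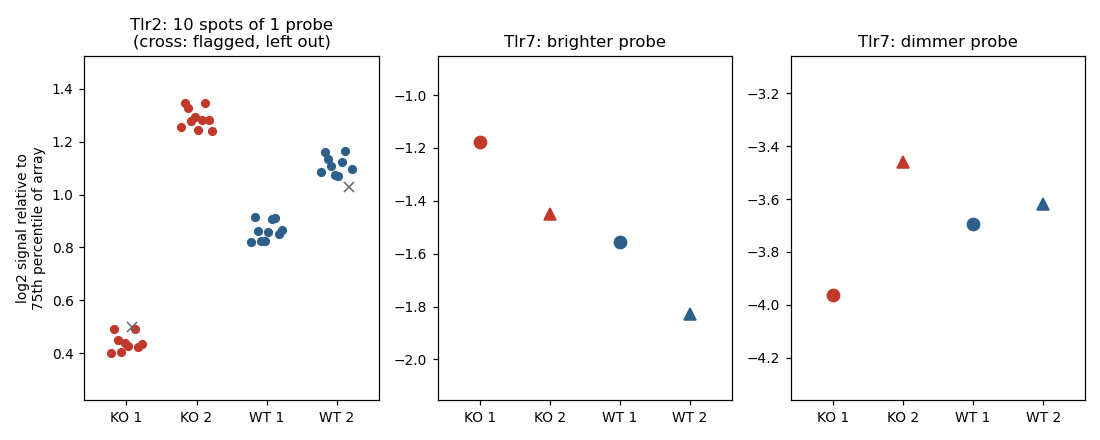
Log2 signal relative to the 75th percentile of the array for the 10 Tlr2 spots (left; crosses are outlier-flagged spots left out) and for the brighter and dimmer Tlr7 probes (middle and right), by array, with STAP-2-/- (KO) in red and WT in blue. Tlr2 spots of 1 array lie within a narrow band, from 0.40 to 0.49 on STAP-2-/- 1, while the Tlr7 probes order the arrays differently.

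Split by number, the genotype difference had the same sign on both pairs of arrays for 6 of the 9 members. The share of all genes with equal signs was not computed, so this count is a description only. Within the arrays numbered 1 the median STAP-2-/- minus WT difference was 0.01, with 5 of 9 members higher, beside 49.5% of all genes. Within those numbered 2 it was 0.18, with 6 of 9 higher, beside 48.2%. Over all genes tested the medians were -0.0025 and -0.0107. Tlr2 was -0.42 at number 1 and 0.18 at number 2, Tlr3 was -0.26 and 0.47, and Cd14 was 0.26 and -0.23. These 3 genes change sign between the numbers. Tlr6 was -0.39 and -0.86, and Tlr4 was -0.27 and -0.08. With 1 array per genotype and number, no test of a difference between the numbers can be had.

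**Figure D3:**
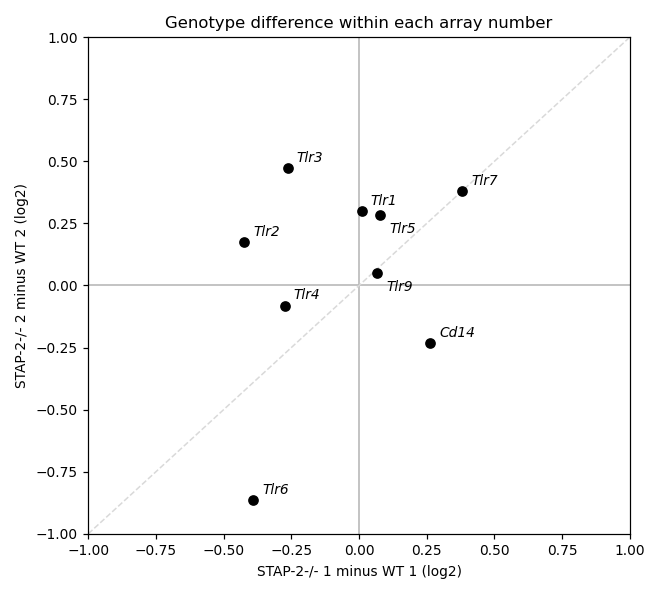
Log2 difference STAP-2-/- minus WT on the arrays numbered 1 (horizontal) and on those numbered 2 (vertical) for the 9 members above background; the dashed line marks equal differences. Tlr7 and Tlr9 lie near the line, Tlr6 is negative on both axes, and Tlr2, Tlr3 and Cd14 change sign.

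The second comparison set the arrays numbered 2, 1 of each genotype, against the arrays numbered 1. Here Tlr2 and Tlr3 were higher on both arrays numbered 2, Tlr9 was lower, and none passed the threshold. By limma, 0 of 9 members had an adjusted p under 0.05, beside 0% of all genes, and 3 of 9 had an unadjusted p under 0.05, beside 25.3% of all genes. Those were Tlr2 and Tlr3, higher at number 2, beside 10.6% of all genes, and Tlr9, lower, beside 14.7%. The arrays of the 2 numbers did not overlap for 4 members that were higher at number 2, beside 26.4% of all genes, and for 1 that was lower, beside 36.1%. Together that makes 5 of 9, beside 62.4% of all genes, so the members' share is near the background and is no result about them. By sign, 6 members were above 0 and 3 below, beside 44.8% and 55.2% of all genes. The median log2 difference of the members was 0.20, and -0.04 over all genes tested.

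Tlr3 read -1.42 and -1.90 on the arrays STAP-2-/- 2 and WT 2, against -2.49 and -2.22 on STAP-2-/- 1 and WT 1. The number 2 arrays were higher by 1.06 within STAP-2-/- and by 0.33 within WT. The fitted difference was 0.69 (SE 0.21, 95% interval 0.14 to 1.25), which is 1.62-fold, with a limma adjusted p of 0.157. It ran from 0.46 without STAP-2-/- 2 to 0.93 without WT 2. Some 10.5% of tested genes had a number difference as large.

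Tlr2 read 1.29 and 1.11 on STAP-2-/- 2 and WT 2, against 0.44 and 0.86 on STAP-2-/- 1 and WT 1. It was higher at number 2 by 0.85 within STAP-2-/- and by 0.25 within WT, the same order of sizes as for Tlr3. The difference was 0.55 (SE 0.18, 95% interval 0.06 to 1.04), with a limma adjusted p of 0.176, and 16.0% of tested genes had one as large. It ran from 0.34 without STAP-2-/- 1 to 0.76 without WT 1.

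Tlr4 and Tlr5 were higher at number 2 by smaller amounts, 0.29 (SE 0.14, limma adjusted p of 0.266) and 0.20 (SE 0.14, limma adjusted p of 0.403), with no overlap between the numbers. Within STAP-2-/- the number 2 array was higher by 0.39 for Tlr4 and by 0.31 for Tlr5, and within WT by 0.19 and 0.10. The Tlr4 difference was 0.15 without STAP-2-/- 1 and 0.43 without WT 1, and that of Tlr5 was 0.06 without STAP-2-/- 2 and 0.35 without WT 2. Tlr6 was higher by 0.68 within WT and by 0.21 within STAP-2-/-, with a difference of 0.44 (SE 0.34) and overlapping numbers. Without WT 2 the Tlr6 difference was 0.01 and without STAP-2-/- 2 it was 0.88.

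Tlr9 went the other way in both genotypes. It read -0.31 and -0.36 on STAP-2-/- 2 and WT 2, against -0.0001 and -0.07 on STAP-2-/- 1 and WT 1. The step was -0.31 within STAP-2-/- and -0.29 within WT, and the difference was -0.30 (SE 0.10, 95% interval -0.57 to -0.03), with a limma adjusted p of 0.181. This was the most even step between the numbers in the family together with that of the brighter Tlr7 probe, at -0.27 within each genotype. The dimmer Tlr7 probe gave a difference of 0.29 (SE 0.14, limma adjusted p of 0.282) against -0.27 (SE 0.21, limma adjusted p of 0.440) for the brighter one, so the sign for Tlr7 depends on the probe. By the brighter probe it was -0.08 without STAP-2-/- 1 or WT 2, and -0.46 without STAP-2-/- 2 or WT 1. Cd14 and Tlr1 differed by -0.04 (SE 0.15) and 0.04 (SE 0.14). The sign of Cd14 turned under quantile and median scaling and without either STAP-2-/- array, where it was 0.10 and 0.08 without numbers 1 and 2 of that genotype, and that of Tlr1 turned to -0.11 without STAP-2-/- 2.

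**Figure D4:**
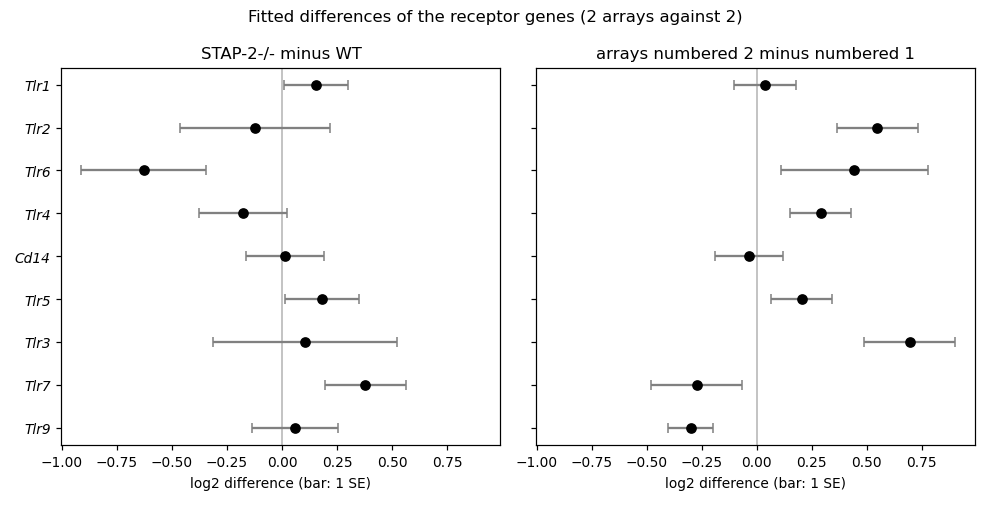
Fitted log2 differences of the 9 members above background with bars of 1 SE, for STAP-2-/- minus WT (left) and for arrays numbered 2 minus arrays numbered 1 (right), each from 2 arrays against 2. Tlr6 is lowest on the left at -0.63, and Tlr3 is highest on the right at 0.69.

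Genes whose values over the 4 arrays ran closest to a member were picked by the Euclidean distance between log2 values centred on each gene's mean. The search covered 15144 genes well above background on all arrays and without a missing value. With 4 arrays this is a description only. For Tlr2 the nearest were Slc25a13, Ly6a and Gng2, at distances of 0.013 to 0.033. Those of Tlr3 were Mettl7b, Ms4a6d and Gbp9, at 0.053 to 0.086. Tlr6 had Ccn4, Mybpc2 and Tmem151b, at 0.072 to 0.119. Among the members themselves the nearest pairs were Tlr1 with Tlr5 at 0.172 and Tlr2 with Tlr3 at 0.279.

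The other genes of the pathway were taken from lists of receptor partners, adaptors and kinases, brakes and response genes. No member of any of these lists passed the limma test in either comparison. Of 14 tested genes for ligand binding and receptor partners, 7 were higher and 7 lower in STAP-2-/- colons, with a median difference of -0.01. Ly96, which encodes the MD-2 partner of Tlr4, read 0.09 and 0.33 on the STAP-2-/- arrays and 0.30 and 0.57 on the WT arrays, a difference of -0.23 (SE 0.18). Lbp, whose product hands lipopolysaccharide to Cd14, read -1.72 and -2.78 on the STAP-2-/- arrays and -1.41 and -1.50 on the WT arrays. Its groups do not overlap, with a difference of -0.80 (SE 0.40) that was -0.32 at number 1 and -1.28 at number 2. The scavenger receptor gene Cd36 differed by -0.40 (SE 0.25). Unc93b1, which carries endosomal receptors to their compartment, read 1.55 and 2.15 on the STAP-2-/- arrays and 1.52 and 1.87 on the WT arrays. Like Tlr3 it was higher at number 2, by 0.48 (SE 0.14, limma adjusted p of 0.151). The endosomal protease gene Lgmn differed by 0.69 (SE 0.12) between the numbers. Cd180 was not above background on any array, and its partner Ly86 differed by 0.12 (SE 0.14) between the genotypes.

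Of 25 tested adaptor and signalling genes, 13 were higher and 12 lower in STAP-2-/- colons, with a median of 0.00. Myd88 read 0.53 and 0.75 on the STAP-2-/- arrays and 0.45 and 0.63 on the WT arrays, a difference of 0.10 (SE 0.16). Ticam1 differed by 0.16 (SE 0.22) and Tirap, the bridging adaptor of Tlr2 and Tlr4, by -0.05 (SE 0.20). The interferon regulatory factor gene Irf7 read -0.34 and 0.74 on the STAP-2-/- arrays and -0.51 and -0.62 on the WT arrays, with a difference of 0.77 (SE 0.41) that was 0.17 at number 1 and 1.37 at number 2. The kinase gene Ikbke differed by 0.40 (SE 0.29), and Irf5 by 0.01 between the genotypes and by 0.74 (SE 0.12) between the numbers. Among 19 brakes on the pathway, 10 were higher and 9 lower, with a median of 0.04. Socs3, which restrains cytokine signalling, read 1.07 and 0.97 on the STAP-2-/- arrays and 2.09 and 2.64 on the WT arrays, the widest separation of the list at -1.34 (SE 0.24). The decoy-like receptor genes Sigirr and Il1rl1 differed by 0.08 (SE 0.13) and -0.69 (SE 1.15), Tollip by 0.05 (SE 0.17) and Nfkbia by -0.07 (SE 0.24). Il1rl1 and Socs1 were higher at number 2 by 2.26 (SE 0.35) and 1.27 (SE 0.29).

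Response genes had wider differences than the receptors, none past the threshold. All 13 tested genes of the MyD88 and NF-kB response, of 18 listed, were lower in STAP-2-/- colons, beside 51.7% of all genes tested. Their median difference was -0.68. The list was chosen with earlier results of these data known, so the count is a description only. Ccl3 and Ccl4 were near level, at -0.04 (SE 1.05) and -0.015 (SE 1.18). Within a number the signs were mixed, as for Cxcl1, 0.25 at number 1, and Ccl4, 0.155 at number 2. In 3 of the 13 the groups did not overlap, beside 13.4% of all genes. That median was -0.37 at number 1 and -0.16 at number 2. Tnf read -4.21 and -2.19 on the STAP-2-/- arrays and -1.65 and -2.06 on the WT arrays, a difference of -1.34 (SE 0.75) that was -2.56 at number 1 and -0.13 at number 2. The chemokine gene Cxcl5 differed by -1.99 (SE 0.56), the nitric oxide synthase gene Nos2 by -1.79 (SE 0.89) and Il1b by -0.74 (SE 0.85). By number, 12 of these 13 genes were higher at number 2, beside 44.8% of all genes, with a median of 0.81. Saa3 and Ccl4 were higher by 2.62 (SE 0.46) and 2.31 (SE 0.13), with limma adjusted p of 0.104 and 0.0872.

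Of 17 tested genes of the TRIF and interferon response, 16 were higher in STAP-2-/- colons, beside 48.3% of all genes, with a median of 0.48. This list was likewise chosen with earlier results of these data known. The median was -0.11 at number 1 and 1.27 at number 2, so the excess lay on the array STAP-2-/- 2, which also held the highest Tlr3 and Tlr2 values. Ifi44 read -3.41 and -0.43 on the STAP-2-/- arrays and -3.31 and -2.92 on the WT arrays, and Ccl5 differed by 1.28 (SE 0.73) between the genotypes. Cxcl10 read 1.05 and 1.03 on STAP-2-/- 2 and WT 2, against -1.12 and -0.44 on STAP-2-/- 1 and WT 1. The interferon gene Ifnb1 was not well above background on any array. Whether the interferon response has a part in the Tlr3 and Tlr2 values was not tested.

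**Figure D5:**
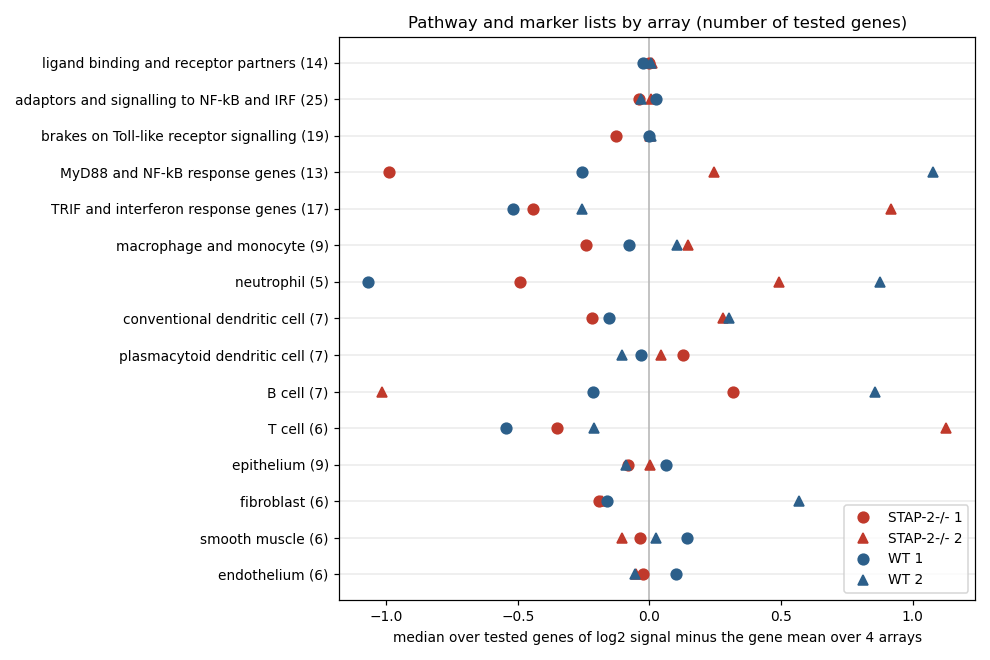
Median over the tested genes of each list of the log2 signal minus the gene's mean over the 4 arrays (horizontal axis), with STAP-2-/- in red, WT in blue, circles for arrays numbered 1 and triangles for arrays numbered 2. Receptor partners, adaptors and brakes stay near 0, interferon response and T cell genes are highest on STAP-2-/- 2, at 0.92 and 1.13, and neutrophil genes are higher on both arrays numbered 2.

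Markers of the cell types known to carry these receptors also varied between arrays. Among 12 macrophage and monocyte markers 9 were tested, and their summed signal was 32.4 and 28.9 times the 75th percentile on the STAP-2-/- arrays and 33.6 and 30.2 on the WT arrays. Their median difference was -0.01 by genotype and 0.32 by number, with 5 of the 9 higher and 4 lower at number 2. The sum follows the brightest probe of the list, Itgam, singled out after its values were seen. Itgam read 4.52 and 4.25 in STAP-2-/- and 4.61 and 4.35 in WT. Of 8 conventional dendritic cell markers 7 were tested, with a median of 0.00 by genotype and 0.37 by number, and summed signals of 0.93 and 1.24 in STAP-2-/- against 0.95 and 1.30 in WT. The 7 tested of 8 plasmacytoid dendritic cell markers had a median of 0.17 by genotype, with 0.17 at each number, and of -0.10 by number. Ly6d and Tcf4 among them were lower in STAP-2-/-. Their summed signals were 197.5 and 188.5 in STAP-2-/- against 180.1 and 159.0 in WT, mostly from Klk1 and Siglech (these 4 genes were singled out after their values were seen). Klk1 read 6.93 and 6.94 in STAP-2-/- and 6.77 and 6.56 in WT. The sums follow these bright probes and do not measure how many such cells were present. The 7 tested of 8 B cell markers, a type known to express Tlr9, were 0.76 higher in STAP-2-/- at number 1 and 1.75 lower at number 2 by their medians, with summed signals of 1.29 and 0.49 in STAP-2-/- against 0.73 and 1.84 in WT. Tlr9 differed by 0.07 and 0.05 on those pairs of arrays. Of 10 neutrophil markers 5 were tested, with a median of 1.56 by number and -0.12 by genotype. S100a8 read -4.95 and -3.29 in STAP-2-/- against -4.80 and -1.11 in WT. The probe of Csf3r, also a neutrophil gene, differed by -0.30 between the numbers. It was far brighter than S100a8, at 5.83 and 5.44 in STAP-2-/- and 5.86 and 5.64 in WT. Whether the Csf3r signal comes from neutrophils was not tested. The 6 tested of 8 T cell markers had a median of 0.77 by genotype, 0.28 at number 1 and 1.36 at number 2. For 9 tested epithelial markers of 10 the medians were 0.03 by genotype and -0.09 by number, and for all 6 smooth muscle and all 6 endothelial markers they were -0.15 and -0.09 by genotype. The part of these cell types in the receptor values was not tested.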

How the data were processed

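Colon RNA of 2 STAP-2-/- and 2 WT pools was hybridised to 4 one-colour Agilent arrays. For every spot the authors deposited an intensity, which the scanner software had corrected for background and spatial trend, per the file headers, beside median intensities and quality flags. That software was Agilent Feature Extraction 10.7.1.1 (the submitters' processing notes). A value table that the authors deposited as well is a ratio on a linear scale, not centred by gene: the same signal over 1 constant per array, within 1% for at least 99.9% of probes compared, with column medians of 0.084 to 0.091. It was used as an alternative.

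Control spots were removed, outlier-flagged spots (129 to 190 per array) became missing, and no spot was saturated. The 75th percentile of each array was subtracted on the log2 scale, and spots of 1 probe were averaged. Of 39429 probes, 27427 got a gene name by unversioned accession from a RefSeq table of GRCm38.p6. The array annotation uses another build, so probe positions are not given, and the promoter coordinates are those of the RefSeq table. The test took 15560 genes, those with signal well above background on the 2 arrays of STAP-2-/-, of WT or of both. Comparisons used limma 3.58.1 in R 4.3.3, with adjusted p under 0.05 as threshold, and Python 3.11.15 elsewhere. On simulated arrays with 15549 genes, the STAP-2-/- against WT fit called 82.2% of genes changed 16-fold and 50.6% of those changed 4-fold. False calls averaged 4.8 per draw. The simulated noise was independent between arrays, without the step that real arrays of equal number share, so these shares need not hold here. On the real arrays Stap2 itself, at a difference of -10.13, had a limma adjusted p of 0.314 and was not called. Members, lists and motifs were chosen with earlier results of these data known. Named genes follow a written rule: the members, Stap2, a fixed set of partner and response genes, the genes of each pathway list with the largest differences, the nearest genes by distance and defining cell markers. Alternatives were other scalings, normexp with an offset of 50 on the median spot signal (the files hold no mean signal), other filters and probe choices, a block or covariate, and leaving out each array.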

Additional observations from a re-analysis of the deposited data

How the results depend on the processing

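No member passed the limma test under any alternative in either comparison; the lowest adjusted p was 0.129. With no array left out, 194 of 200 member differences under the alternatives kept their sign. The 6 that did not were Cd14 by genotype under normexp (-0.0068), Cd14 by number under quantile (0.0097) and median scaling (0.029), Tlr7 by number with the mean of its probes (0.0084), and Tlr7 by genotype (-0.053) and by number (0.29) with its dimmer probe, an alternative chosen after seeing the data. With 1 array left out, 12 of 72 changed sign. By genotype, Tlr2 ran from -0.55 to 0.30, Tlr4 from -0.37 to 0.016, Cd14 from -0.13 to 0.16, Tlr3 from -0.43 to 0.63 and Tlr9 from -0.094 to 0.21. By number, Tlr1 ran from -0.11 to 0.19 and Cd14 from -0.17 to 0.095. Among all genes the count past the threshold was 0 by genotype (326 at an unadjusted p under 0.05) and 1, Stap2, under normexp, and by number 0 (3943 unadjusted), with 0 to 1 when 1 array was left out, the 1 being Six2 without WT 1. The cause was not tested.

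The numbers in the titles are shared by 2 pairs of arrays whose deviations from the genotype means correlated by 0.63 over genes, and nothing in the labels says that a number marks a shared litter or day. With the replicate block, the limma genotype fit gave 0 genes and 0 members past the threshold, and a lowest member adjusted p of 0.699. At an unadjusted p under 0.05 there were 1041 of 15560 genes and 2 of 9 members. Those members were Tlr6 (-0.63, SE 0.16) and Tlr7 by its brighter probe (0.38, SE 0.09). The dimmer Tlr7 probe was not fitted with the block. With genotype as a covariate the number comparison called 0 members. Signals of Tlr5 and Tlr6 were the dimmest among members above background, and 2 arrays per group limit every difference.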

Other observations

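The other mouse receptors of the family, outside the 10 members, were highest on STAP-2-/- 2 or on the arrays numbered 2. This was not shared by all members: Tlr9 and the brighter Tlr7 probe were lower at number 2 in both genotypes. For both Tlr12 and Tlr13, the 2 tested, the arrays numbered 2 were higher without overlap, beside 26.4% of all genes. Tlr12 read -1.81 and -1.14 on the STAP-2-/- arrays and -1.83 and -1.67 on the WT arrays. Its number difference was 0.42 (SE 0.20, limma adjusted p of 0.275). Tlr13, a sensor of bacterial ribosomal RNA, read -0.55 and 0.02 on the STAP-2-/- arrays and -0.40 and -0.26 on the WT arrays, with a number difference of 0.36 (SE 0.15, limma adjusted p of 0.219). Tlr11 was well above background on both arrays numbered 2, at -5.43 on STAP-2-/- 2 and -5.48 on WT 2, and on neither array numbered 1, at -6.91 and -6.93. The arrays numbered 2 were at least 1.78-fold higher for Tlr11, which did not enter the test.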
